A study of Mus musculus with 8 samples.

Results

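Long intergenic noncoding RNAs (lincRNAs) are transcribed between protein-coding genes and carry no annotated protein. Most are expressed at low levels and in few cell types, while a small number, such as Neat1 and Malat1, are abundant nuclear RNAs. SOX9 is an HMG-box transcription factor of astrocytes and ependymal cells. Where it sits at lincRNA promoters was examined through the start sites of annotated lincRNA genes. Of 51229 annotated gene starts on chromosomes 1 to 19 of the mouse genome (mm10), 5209 belonged to the lincRNA type. The 4587 of these that lay more than 5 kb from the 5′ end of every protein-coding gene were analysed. Coding promoters were not wholly removed by this, since 82 of the 4587 lay within 5 kb of another start of a coding gene's transcripts, and 77 lay within 5 kb of a curated RefSeq mRNA start, 57 of them within 1 kb. The remaining 622 lay within 5 kb of a coding start and served for comparison. The study profiled SOX9 by CUT&Tag, in which an antibody directs Tn5 transposase to cut the DNA near a bound protein. Adult wild-type C57BL/6 mice were left uninjured or received a mid-thoracic spinal cord contusion and were sampled at 1 day post-injury (1 d.p.i.). Nuclei were sorted on the DNA stain 7AAD from the tissue around the lesion, or from the same level in uninjured mice. Each condition had 1 male and 1 female SOX9 library (n = 2) and a secondary-only control for each, in which the SOX9 antibody was left out, giving 8 libraries.

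Signal at a start site is given as the mean coverage within 1 kb to each side of the gene's 5′ end, divided by the library's mean coverage over chromosomes 1 to 19. Flanking windows of the same length were centred 5 kb upstream and 5 kb downstream. The SOX9 libraries held 1824332 fragments (uninjured male), 7068156 (uninjured female), 2463775 (1 d.p.i. male) and 2317198 (1 d.p.i. female) on these chromosomes. A lone fragment in a start window was worth 0.675, 0.174, 0.50 and 0.531 times the library mean in the same order, which is the order used for all 4 values below. The median lincRNA start window held 1, 4, 1 and 2 fragments, and 28.5%, 8.72%, 25.4% and 22.0% of the windows held no coverage. Across the 4 libraries 68 start sites were never covered and 2240 were covered in each. Most single lincRNA start sites were therefore measured with a handful of fragments. The controls held 22300, 45472, 51460 and 10664 fragments. Of the control fragments that overlapped no other, 93.7%, 82.7%, 86.5% and 91.4% had the exact ends of a fragment in a SOX9 library, against at most 0.0416% after a shift by 1 kb. The controls were therefore not independent of the SOX9 libraries, and antibody-directed signal cannot be told apart from cutting of open chromatin by the comparison with them.

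The highest coverage at lincRNA start sites lay on ribosomal DNA. Gm42418, AY036118 and Gm26917 are annotated as lincRNAs on chromosome 17, inside or just beside an annotated rRNA gene at chr17:39846353-39848827 in which the RefSeq annotation places Rn18s-rs5. Gm42418 carried 1180.1, 897, 2617 and 2929 times the library mean and AY036118 carried 1037, 824, 2404 and 2380 times. Gm26917, whose start lies outside the annotated rRNA gene, carried 865, 692, 1526 and 779 times. The mean of the 3 start sites in the controls was 1584, 4879, 16129 and 2060 times the library mean. These 3 start sites held 41.4% of the summed coverage of all 4587, averaged over the SOX9 libraries. All averages below are therefore given without them, over 4584 start sites, unless stated, a choice made after their values were seen.

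LincRNA start sites carried more coverage than the DNA 5 kb away. With the ribosomal start sites counted, the mean over start sites was 1.95, 1.97, 2.89 and 2.73 times the library mean, and it exceeded the flanking windows 1.83 ± 0.183-fold (mean ± SD, n = 4 SOX9 libraries). Without them the mean was 1.28, 1.45, 1.47 and 1.40 times the library mean, and the ratio to the flanks was 1.25, 1.56, 1.42 and 1.35 (1.40 ± 0.129). The start was thus above the flanks in each of the 4 libraries under both counts, and the excess was larger than the spread between libraries. In 200-bp steps the profile reached 1.81 ± 0.215 times the library mean in the 200 bp upstream of the start, against 1.05 at 5 kb upstream and 0.952 at 5 kb downstream. The control libraries gave start means of 1.29, 1.44, 1.41 and 1.55 and ratios of 1.41, 1.41, 1.36 and 1.82, on 101, 232, 280 and 62 fragments. Coverage was unevenly spread over the start sites. The quartiles of the coverage averaged over the SOX9 libraries were 0.376, 0.747 and 1.49 times the library mean over all 4587 start sites, and the 46 highest of the non-ribosomal start sites held 13.6% of the coverage of the 4584.

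Mean coverage at lincRNA start sites differed with base composition. Vertebrate promoters fall into CpG-rich ones, often broadly active, and CpG-poor ones, often restricted to a tissue. With at least 50% GC and a CpG content of at least 0.6 of that expected over 1 kb, 114 of the 4584 start sites were CpG-rich and 4470 were CpG-poor. CpG-rich lincRNA start sites carried 4.79, 8.83, 7.63 and 6.17 times the library mean and stood 3.63 ± 0.747-fold above their flanks. CpG-poor ones carried 1.19, 1.26, 1.31 and 1.28 times and stood 1.28 ± 0.0881-fold above theirs. The CpG-rich class was 5.42 ± 1.29-fold higher, with a range of 4.04 to 7.02 over the 4 libraries. Counting the ribosomal start sites, which are CpG-rich, raised this ratio to 35.8. In the 200 bp upstream of the start the CpG-rich class reached 12.5 ± 4.50 times the library mean and the CpG-poor class 1.53 ± 0.111.

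At like CpG class, lincRNA start sites carried less coverage than coding ones. The 9512 CpG-rich coding starts averaged 9.88 ± 3.04 times the library mean, and CpG-rich lincRNA start sites reached 0.701 ± 0.0528 of that, with a range of 0.631 to 0.744. With the ribosomal start sites the same ratio was 4.92, so its direction rested on whether they were counted. The 11295 CpG-poor coding starts averaged 3.04 ± 0.403 times, and CpG-poor lincRNA start sites reached 0.418 ± 0.0465 of that, between 0.351 and 0.453. The CpG-poor ratio depended on the class limit and was 0.705 with a CpG content under 0.4 of that expected. Taken as a ratio within each library, without the ribosomal start sites, the shortfall against coding starts exceeded the spread of that ratio in both classes. Within the CpG-poor class coverage still followed GC content. It averaged 0.425 times the library mean at the 592 start sites under 40% GC and 2.58 times at the 854 with at least 50% GC. Start sites under 40% GC were on average 0.794 times their flanks, so the excess over neighbouring DNA was absent there. Across the 4584 start sites coverage correlated with GC content at r = 0.576, a description over sites that share the same libraries. Repeats went the other way, from 1.97 times the library mean where under 10% of the 1 kb was repeat to 0.950 where 30% or more was.

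Letters of a SOX motif did not mark the covered start sites. ACAAAG or ACAATG occurred on either strand within the central 1 kb of 78.0% of lincRNA start sites, of 61.0% of coding starts and of 70.6% of all gene starts. The 1008 lincRNA start sites without these letters averaged 1.63 times the library mean, and the 1022 with 3 or more averaged 1.23 times. Within the CpG-poor class the same groups averaged 1.38 and 1.19 times, so the difference was smaller once the CpG-rich start sites were set aside. The AP-1 letters TGACTCA or TGAGTCA occurred at 18.8% of lincRNA start sites, which averaged 1.36 times against 1.41 times without them.

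Coverage at lincRNA start sites was lower farther from coding genes. It averaged 2.48 times the library mean at the 264 start sites 5 to 10 kb from the nearest coding start and 1.78 times at the 1443 at 10 to 50 kb. It averaged 1.31 times at the 1726 at 50 to 200 kb and 0.801 times at the 1151 farther away. The flanking windows were lower in step, so the ratio to the flanks was 1.14, 1.46, 1.39 and 1.49 in the same order. At 5 to 10 kb a flanking window can fall on the coding promoter itself, so the ratio there is not comparable with the others. The boundary of 5 kb made no sharp step in mean coverage. The 59 lincRNA start sites 4 to 5 kb from a coding start averaged 2.48 ± 0.33 times. The 54 at 5 to 6 kb averaged 3.10 ± 0.703 times. In the same order, 18.6% and 11.1% carried at least 3 times the library mean in each SOX9 library, and 1.69% and 13.0% were CpG-rich. Across the 4584 start sites coverage correlated with that of the nearest coding start at r = 0.220, and with the upstream and downstream flanks at r = 0.591 and 0.598. At the 1707 start sites within 50 kb of a coding start, the correlation with that start was 0.321. The flanks lay 5 kb away and the nearest coding start a median of 80009 bp (all 4587), so these correlations are not comparable. The 221 inside the body of a coding gene averaged 2.22 times, but their flanks were as high, with a ratio of 1.1. Genes with 5 or more annotated transcripts (99) averaged 2.48 times, against 1.3 times for the 3567 with 1 transcript.

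Counted singly, 213 of 4587 lincRNA start sites (4.64%) carried at least 3 times the library mean in each of the 4 SOX9 libraries and are called occupied here. The same held for 21.2% of all gene starts, for 39.8% of coding starts and for 2.37% of 2-kb tiles of the genome. Among the 622 lincRNA start sites within 5 kb of a coding start it held for 242 (38.9%). Of the 117 CpG-rich lincRNA start sites, ribosomal ones included, 58 (49.6%) were occupied, and of the 4470 CpG-poor ones 155 (3.47%), so most occupied start sites were CpG-poor although the class as a whole was seldom occupied. Occupied start sites lay a median of 42613 bp from the nearest coding start, against 80009 bp for all 4587. Their median GC content was 53.5% against 46%, and 71.8% held the SOX letters. In 65.3% of them coverage was above both flanking windows in all 4 libraries, against 7.94% of all 4587. Occupied start sites were chosen for high coverage in the same libraries, and 2240 of the 4587 were covered in each. The choice thus largely sets this difference, and nothing is concluded from it. Of the 213, 18 lay within 5 kb of a RefSeq mRNA start, 14 of them within 1 kb. A further start of another gene lay within 1 kb of 30 occupied start sites (14.1%) and of 335 of all 4587 (7.30%), and for these the 2 promoters cannot be told apart.

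A test per gene asked which start sites stood above their own flanks. This limma fit on the 4 SOX9 libraries, chosen after the data were seen, covered 27870 gene starts with enough coverage, 1652 of them lincRNA start sites. At an adjusted p under 0.05 the start was higher than the flanks at 397 lincRNA start sites (24%) and lower at 104 (6.3%). Over all gene starts tested 47.6% were higher and 5% lower, and of coding starts 66.2% were higher. Higher were 68 of 104 CpG-rich lincRNA start sites tested (65.4%) and 329 of 1548 CpG-poor ones (21.3%). CpG-rich lincRNA start sites thus stood above their flanks more often than CpG-poor ones. The number lower than their flanks was 63 without the uninjured female library, the deepest of the 4, and the number higher was then 314.

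The highest start sites were taken from those occupied and above both flanking windows in all 4 SOX9 libraries, ranked by mean coverage. Although 2410080I02Rik exceeded it in the 1 d.p.i. male library, Neat1 was the highest of these outside the ribosomal locus. Its gene, at chr19:5824708-5845478 on the minus strand, carried 30.1, 44.9, 67.7 and 52.7 times the library mean at the start, which lay 29796 bp from the nearest coding start and 145 bp from another annotated gene's start. It stood above its flanks by a log2 ratio of 1.36 ± 0.33 (SE; adjusted p = 0.00238, limma), the flanks themselves being at 23.9 and 12.4 times. Malat1, at chr19:5795690-5802672 on the same strand, carried 19.5, 23.6, 29.7 and 28.2 times and stood above its flanks by 1.70 ± 0.31 (adjusted p = 0.000276). Its start lay 731 bp from another annotated gene's start. Neat1 and Malat1 both lay in a stretch of high coverage, so the start added to a raised surrounding. Gm26901 showed the opposite setting. Its start on chromosome 1 was 308949 bp from the nearest coding start, of Pcmtd1, with 13.5, 37.2, 27.9 and 22.8 times the library mean and flanks at 0.347 and 0.0357 times. Its log2 ratio of 5.16 ± 0.34 (adjusted p = 1.65e-07, limma) placed the start far above weakly covered flanking windows. Gm6410 on chromosome 8 had a like shape, with 13.7, 41.1, 30.4 and 18.4 times and a log2 ratio of 4.45 ± 0.39 (adjusted p = 5.61e-07). It starts 97 bp from another annotated gene's start. Neat1, Gm26901 and Gm6410 were ranked among start sites already above both flanking windows, so their adjusted p-values follow largely from that choice. The control windows held 1, 1, 2 and 0 fragments at Neat1 and 0, 0, 1 and 0 at Malat1. They held 0, 4, 3 and 0 at Gm26901 and 1, 2, 0 and 0 at Gm6410. At Gm26901 the 4 and 3 fragments stood for 110.9 and 85.7 times the control library mean.

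The next start sites in this ranking differed in setting. 2410080I02Rik starts 6326 bp from Klf9, on chromosome 19, and carried 16.1, 33.6, 69.5 and 40.6 times the library mean, with a log2 ratio of 2.33 ± 0.32 to its flanks (adjusted p = 2.13e-05). Its mean of 39.9 ± 22.2 times was above that of the Klf9 start, at 23.2 ± 8.92 times, but the spreads overlapped. 6720427I07Rik on chromosome 13 carried 19.6, 44.2, 35.5 and 26.6 times, and Gm34590 on chromosome 15 carried 26.3, 37.6, 25.8 and 32.5 times, both CpG-rich. AC131323.2 on chromosome 17, with 23.6, 40.6, 46.7 and 27.3 times, and Gm38414 on chromosome 8, with 15.7, 35.9, 29.8 and 28.6 times, were CpG-poor. By coverage, start sites of both CpG classes thus reached the top of the range. All 5 stood above their flanks at an adjusted p of 2.13e-05 or lower (limma). They had been chosen for high coverage and for lying above both flanking windows in every SOX9 library. The choice thus largely sets this result, and nothing is concluded from it.

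LincRNAs with a described function were looked up by name. A list of 69 characterised noncoding RNAs matched 60 annotated genes, of which 25 were lincRNA start sites over 5 kb from coding starts. Of these 14 (56%) were occupied, against 4.64% of all lincRNA start sites and 21.2% of all gene starts. Of the 22 tested, 13 (59.1%) stood above their flanks, against 24% of lincRNA start sites and 47.6% of all gene starts tested. Leaving out each library in turn kept 7 of these calls in every case. Without the 1 d.p.i. male library the calls of Snhg12, Mir124a-1hg, Mir17hg and Meg3 were lost (adjusted p = 0.0599, 0.0563, 0.0504 and 0.0557), and that of Meg3 also without the 1 d.p.i. female library (0.204). Carmn lost its call without either female library (up to 0.109) and Lncpint without any library but the uninjured male (up to 0.145). Epb41l4aos passed without the uninjured male (0.0414) or the 1 d.p.i. female library (0.0259). The list holds RNAs known to be expressed, so its share is not a property of lincRNAs in general. 1700020I14Rik carried 5.38, 10.3, 8.23 and 6.46 times the library mean, with a log2 ratio of 2.81 ± 0.32 to its flanks (adjusted p = 4.02e-06). Rmst, known from neural progenitors as a partner of SOX2, carried 1.99, 3.81, 3.87 and 3.51 times, with a log2 ratio of 1.85 ± 0.33 (adjusted p = 0.000217). C130071C03Rik, the host gene of a miR-9 precursor, carried 8.31, 9.20, 11.5 and 12.1 times (1.43 ± 0.32, adjusted p = 0.00134). Each of these 3 stood above its flanks. Mir124a-1hg carried 5.66, 17.7, 14.9 and 8.22 times and Meg3 4.95, 4.20, 4.59 and 6.31 times. Starts of other annotated genes lay close to those of Meg3 (167 bp), Lncpint (137 bp), Mir17hg (792 bp) and Snhg12 (841 bp). H19, an imprinted fetal transcript, and Hotair, from the HoxC cluster, were near background. H19 carried 0, 0.643, 1.58 and 1.01 times and Hotair 0.929, 0.418, 1.55 and 0.657 times.

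The lincRNA start sites nearest to Sox9 carried little coverage. Gm11681 starts 16784 bp from the Sox9 start on chromosome 11 and carried 1.13, 0.885, 0.532 and 0.133 times the library mean. 4933434M16Rik, at 42930 bp, carried 1.01, 0.167, 2.42 and 0.243 times. The Sox9 start averaged 5.16 ± 2.43 times, so neither neighbour shared the coverage of the coding promoter. Farther out, at 419614 bp from the Sox9 start, 2610035D17Rik carried more, with 6.19, 8.0, 7.32 and 6.24 times and a log2 ratio of 1.48 ± 0.35 to its flanks (adjusted p = 0.0019). Its CpG-rich start was occupied in all 4 libraries with little spread between them. 4732490B19Rik, 7831 bp from it, carried 3.06, 2.66, 3.87 and 4.63 times, above the upper quartile of 1.49 for all lincRNA start sites, and did not pass the test against its flanks (adjusted p = 0.0974). The 2 remaining start sites within 1 Mb, Gm11680 and Gm11674, averaged 0.321 and 0.138 times.

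Neighbours of glial and injury-response genes, Sox9 included, had the typical coverage of lincRNA start sites at their median. A list of 59 such genes had 57 in the annotation, and 36 lincRNA start sites lay within 100 kb of 21 of them as the nearest coding gene. Their median was 0.734 times the library mean, against 0.747 for all 4587. Of the 36, 4 (11.1%) were occupied, against 4.64% of all lincRNA start sites and 21.2% of all gene starts. Of 15 tested, 3 (20%) stood above their flanks, against 24% of lincRNA start sites and 47.6% of all gene starts tested, and these 3 calls held whichever library was left out. Gm13589, near Lhx2, passed without the 1 d.p.i. female library (adjusted p = 0.034) and not otherwise. Gm32296, near Fos, stood below its flanks (−2.83 ± 0.43, adjusted p = 5.48e-05). D730003I15Rik, 6415 bp from the annotated 5′ end of Atf3 and 41121 bp from the nearest RefSeq mRNA start, carried 13.7, 13.5, 15.7 and 11.4 times the library mean (2.01 ± 0.33, adjusted p = 0.00011). 4632428C04Rik, 55717 bp from Hes1, carried 4.21, 6.68, 6.06 and 7.30 times (1.95 ± 0.32, adjusted p = 8.81e-05). A330102I10Rik, 60686 bp from Sox4, carried 2.03, 7.79, 7.95 and 5.84 times (2.57 ± 0.39, adjusted p = 4.69e-05). AC131323.3, 9473 bp from Sox8, carried 9.38, 16, 12.9 and 15.8 times on raised flanks and did not pass (adjusted p = 0.074), though it did without the uninjured male library (0.0313). Individual start sites near Atf3, Hes1 and Sox4 therefore formed peaks of their own.

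At 1 d.p.i. no lincRNA start site passed the test for a change. The male pair and the female pair each compare 1 injured with 1 uninjured library. Over the 4584 start sites the mean at 1 d.p.i. was 1.05 times that in uninjured cord, 1.15 in males and 0.968 in females. With the ribosomal start sites the ratio was 1.43 (1.49 and 1.38), those start sites being 2.3 times higher at 1 d.p.i. Of the 752 lincRNA start sites with a mean of at least 2 times the library mean, limma called 0 higher and 0 lower at an adjusted p under 0.05. Over all 19944 gene starts tested, 0.11% were called higher and 0% lower. At an unadjusted p under 0.05, 26 lincRNA start sites (3.46%) were higher and 11 (1.46%) lower, against 1.31% and 0.918% of all gene starts tested, and the lowest adjusted p was 0.13. Without the uninjured female library, 5 were called higher (2410080I02Rik, Gm807, Gm44956, Gm45356 and Gm36757, chosen after their values were seen), with adjusted p from 0.036 to 0.0492. These were 0.665% of those tested, against 0.657% of all gene starts, and the lone uninjured library was assumed to vary like the others. The 1 d.p.i. values lay above the uninjured values in every pairing at 146 start sites (19.4%), against 8.62% of all gene starts tested. They lay below in every pairing at 110 (14.6%), against 15.1%. The pairings share libraries and the shares expected without a change were not computed, so no gain or loss is read from these counts. The median log2 change was 0.31 in males and −0.20 in females, against 0.40 and −0.54 over all gene starts tested. A common response of lincRNA start sites to injury was not detectable with 1 library per sex and condition. In bulk nuclei, fewer cells of a type cannot be told apart from less signal per cell.

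The start sites with the largest differences between the conditions rested on few fragments. Gm42196 on chromosome 3 carried 11.8 and 9.23 times the library mean in uninjured cord and 2.71 and 1.16 times at 1 d.p.i., on 14, 51, 6 and 3 fragments. Its log2 difference was −2.25 ± 0.60 (adjusted p = 0.13, limma), −1.94 in males and −2.55 in females. It was the 1 lincRNA start site to pass when libraries were scaled by the median of the tested windows (adjusted p = 0.0111). Gm42695, 78203 bp from Sox2, went the other way with 0, 1.90, 4.26 and 3.65 times (2.02 ± 0.92, adjusted p = 1), and 0 fragments in the uninjured male. Of the other 4 with the largest differences in the same direction in both sexes, Gm37552, 1700092C17Rik and Gm47128 each had a library at 0 and Gm43262 had one at 0.168 times. Among the characterised lincRNAs tested Mir17hg differed most, with 0.292, 2.95, 4.65 and 5.06 times (1.70 ± 0.73, adjusted p = 1). Neat1 also had higher values in the injured cord (0.69 ± 0.72, adjusted p = 1), by 1.16 in males and 0.23 in females. With libraries scaled by their mean, none of these differences passed correction over all gene starts.

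The 300 bases around 6 start sites are given on the strand of the gene in mm10, with capitals marking ACAAAG or ACAATG or their reverse complements. These letters occurred within 1 kb at 78.0% of lincRNA start sites, so their presence describes the sequence and is no measure of binding. Neat1 (chr19:5845329-5845628, minus strand), 2410080I02Rik (chr19:23134750-23135049, plus), Gm26901 (chr1:7397720-7398019, minus) and Gm38414 (chr8:36155860-36156159, plus) had high coverage. 2610035D17Rik (chr11:113201689-113201988, minus) and Gm11681 (chr11:112798859-112799158, minus) lie 419614 and 16784 bp from the Sox9 start, and the first was occupied while the second was weakly covered.
Neat1: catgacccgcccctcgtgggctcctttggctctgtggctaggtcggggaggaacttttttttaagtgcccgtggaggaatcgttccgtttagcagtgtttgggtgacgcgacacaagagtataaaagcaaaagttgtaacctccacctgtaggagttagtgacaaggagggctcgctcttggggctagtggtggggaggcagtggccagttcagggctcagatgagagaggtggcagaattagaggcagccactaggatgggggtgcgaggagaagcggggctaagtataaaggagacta
2410080I02Rik: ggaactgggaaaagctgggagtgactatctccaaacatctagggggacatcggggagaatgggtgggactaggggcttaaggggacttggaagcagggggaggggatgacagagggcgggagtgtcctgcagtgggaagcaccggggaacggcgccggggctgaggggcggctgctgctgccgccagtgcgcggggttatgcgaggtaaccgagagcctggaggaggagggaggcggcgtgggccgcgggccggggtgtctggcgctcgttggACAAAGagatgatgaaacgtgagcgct
Gm26901: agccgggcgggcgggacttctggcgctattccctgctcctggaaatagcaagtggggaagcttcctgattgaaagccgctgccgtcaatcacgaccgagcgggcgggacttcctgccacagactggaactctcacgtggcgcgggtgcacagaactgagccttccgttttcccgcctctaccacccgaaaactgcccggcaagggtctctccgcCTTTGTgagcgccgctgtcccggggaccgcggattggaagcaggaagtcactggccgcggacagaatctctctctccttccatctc
Gm38414: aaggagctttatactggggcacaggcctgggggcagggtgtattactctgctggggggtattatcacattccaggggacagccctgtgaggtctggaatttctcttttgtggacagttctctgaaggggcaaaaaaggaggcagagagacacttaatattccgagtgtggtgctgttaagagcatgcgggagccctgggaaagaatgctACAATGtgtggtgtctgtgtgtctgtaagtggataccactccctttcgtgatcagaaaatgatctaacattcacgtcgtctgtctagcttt
2610035D17Rik: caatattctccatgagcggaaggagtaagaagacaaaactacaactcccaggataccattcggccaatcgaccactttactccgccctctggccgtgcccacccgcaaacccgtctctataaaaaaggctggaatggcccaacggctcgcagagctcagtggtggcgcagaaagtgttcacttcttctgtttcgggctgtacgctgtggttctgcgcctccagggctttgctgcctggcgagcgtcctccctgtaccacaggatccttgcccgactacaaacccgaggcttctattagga
Gm11681: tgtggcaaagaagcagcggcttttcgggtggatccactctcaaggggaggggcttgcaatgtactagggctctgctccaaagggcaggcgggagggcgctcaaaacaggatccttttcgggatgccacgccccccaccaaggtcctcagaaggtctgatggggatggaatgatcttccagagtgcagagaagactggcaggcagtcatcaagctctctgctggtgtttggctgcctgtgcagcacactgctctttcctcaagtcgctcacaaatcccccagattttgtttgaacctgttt
Gm26901 and 2410080I02Rik, at 62.3% and 65.3% GC, each held 1 such 6-base match, as did Gm38414 at 49% GC. 2610035D17Rik and Gm11681 had the same GC content of 55.3% and no match over these bases. Over the central 1 kb they differed, 2610035D17Rik being CpG-rich with 3 matches and Gm11681 CpG-poor with 0.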

How the data were processed

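Signal was read from the coverage track deposited by the authors, whole-number coverage without scaling, made with Bowtie2 2.5.4 on mm10 and Picard 3.4.0 (SEACR 1.3 peaks were not used here). Genes came from GENCODE. Python 3.11.15 with numpy 2.4.6 and pandas 2.3.3 gave coverage per window. limma 3.58.1 in R 4.3.3 was fitted to log2(coverage over library mean + 0.5), which understates ratios of weak windows, and Benjamini-Hochberg adjustment ran over all gene starts tested. Windows needed a mean of at least 2 (1 for start over flank). Averages over start sites are given as values without p. For 1 d.p.i. against uninjured, 2 against 2 libraries allow no exact p under 0.333. Exact tests of the other averages are not given here. Named genes were those of 2 lists, the largest differences at 1 d.p.i., those within 1 Mb of Sox9 and those with most control fragments. Added to these were the 10 highest among occupied start sites above both flanking windows in all 4 SOX9 libraries. Members and lists were chosen with earlier results of these data known. The flank test and leaving out ribosomal start sites were chosen after seeing the data. Alternatives varied windows, flanks, thresholds, pseudocounts, scaling and libraries.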

Additional observations from a re-analysis of the deposited data

Results flagged for a closer look

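In some averages the male and female pairs differed in opposite directions at 1 d.p.i. Over the 4584 start sites outside the ribosomal locus the log2 ratio of 1 d.p.i. to uninjured was 0.20 in males and −0.0465 in females. Over the CpG-rich ones it was 0.67 and −0.52, and over the occupied ones 0.53 and −0.38. The 4470 CpG-poor start sites did not split, with ratios before taking logs of 1.105 in males and 1.02 in females, and those under 40% GC went the other way, with 0.872 and 1.27. All gene starts tested split as the occupied ones did, with a median of 0.40 in males and −0.54 in females, so the pattern was not particular to lincRNA start sites. Each value compares 1 library with 1 library, and whether the sexes differ was not tested. The uninjured female library held 7068156 fragments, against 1824332 to 2463775 in the others, so sex, depth and library cannot be told apart.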

How the results depend on the processing

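Of 123 alternatives of averages and counts, 101 left the result within the spread between libraries or within 1.5 times the count, 21 moved it and 1 reversed it. Of 237 for named start sites, 199 left the value within the spread. Alternatives around the ribosomal start sites and the flank test were chosen after seeing the data. Where a value moved, the cause was not tested.

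The start over flank ratio of 1.83 was 1.63 with 2 kb to each side, 2.3 with flanks 10 kb away, 2.60 with flanks free of exons and starts, 1.27 without the highest 1% of start sites and 1.40 without the 3 ribosomal ones (1.78 to 1.91 leaving out 1 library). The log2 difference of this ratio between each SOX9 library and its control, −0.45 ± 0.30 (SD, n = 4), was −1.13 with exon-free flanks and −0.10 without the ribosomal start sites. The 1 d.p.i. ratio of 1.43 was 1.16 relative to the flanks, 1.04 without the highest 1% and 1.05 without the ribosomal start sites (1.39 to 1.48 leaving out 1 library). Within males it was 1.49 and within females 1.38.

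CpG-rich lincRNA over coding starts went from 4.92 to 0.701 without the ribosomal start sites, which reversed it (4.24 to 5.87 leaving out 1 library). The CpG-poor ratio of 0.418 was 0.513 against isolated coding starts and 0.705 with a CpG ratio under 0.4 (0.406 to 0.440 leaving out 1 library). CpG-rich over CpG-poor, 35.8, was 56.9 with stricter classes, 3.87 without the highest 1% and 5.42 without the ribosomal start sites (31.6 to 39.96 leaving out 1 library).

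Occupied start sites numbered 374 at 2 times and 97 at 5 times the library mean, 231 to 273 leaving out 1 library, and 195 with libraries thinned to equal depth. Leaving out 1 library gave 0 to 5 start sites higher at 1 d.p.i., and 0 lower. Scaling by the median of tested windows gave 1 lower, and sex as a replicate block gave 0 each way. Start sites above their flanks numbered 314 to 413 leaving out 1 library. Those below numbered 63 to 99, and 66 with a pseudocount of 0.1. Depth limits single start sites, since the median window held 1 to 4 fragments.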
